A study of Homo sapiens with 6 samples.

Results

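The genes described here are 33 genes of homologous recombination and the Fanconi anemia pathway. They were chosen by gene name, by a rule that uses no measured value but with earlier results of these data known, and they are 33 of the 18999 features in the deposited table of expression values. MCF10A cells, an immortalised non-tumorigenic line of human mammary epithelium, had been transduced with retrovirus carrying either empty pMSCVpuro or pMSCVpuro with a pre-miR-203a hairpin. Both groups were kept under puromycin, so both carry the vector backbone and its resistance gene, and each group had 3 RNA-seq libraries. The labels describe total RNA in one place and an AGO2 immunoprecipitation before mRNA purification in another, and which applied to these libraries could not be settled. The labels do not say whether the libraries of a group come from separate cultures, and p-values here measure the spread between libraries alone.

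In cells with pre-miR-203a, RNA of most of these genes was lower, and none was past the test in the other direction. All 33 had a lower mean FPKM (reads scaled to feature length and library total) with pre-miR-203a than with empty vector. The log2 fold change was negative for all 32 that could be tested, against 5830 of all 11271 tested features. Of the 32 with enough signal to test, 21 fell, or 65.6%, against 9.18% of all 11271 tested features. None was higher, against 6.59% of all tested features, and no member was higher at an unadjusted p under 0.05 or with limma-voom on recovered reads. The falls reached the strand-exchange motor RAD54L (to 27.4% of the empty-vector mean), the recombination factor XRCC2 (26.7%), the nuclease EXO1 (32.9%), BRCA1 (40.4%) and BRCA2 (30.3%). Members that were not past the threshold included ATR, RAD50, FANCF and RAD51D, which kept 74.5% to 88.6% of the empty-vector mean. The test was limma on log2(FPKM + 1), fitted to features with FPKM of at least 1 in at least 3 libraries. Changes called had an adjusted p under 0.05 over all tested features.

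Homologous recombination repairs broken chromosomes by copying an intact sister strand, and it is active in S and G2 phase. Broken ends are first resected to single strands, a protein filament that searches for the matching sequence is then built on them, and helicases and nucleases resolve the joined molecules. The Fanconi anemia pathway acts where the strands of DNA are crosslinked: a core ubiquitin ligase marks the FANCD2 and FANCI pair, and the unhooked lesion is passed on to recombination. Many of these genes are transcribed mostly in proliferating cells, and in mammary epithelium BRCA1, BRCA2 and PALB2 are known as breast cancer susceptibility genes.

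The microRNA that the insert encodes pairs with targets through its seed. Its mature form lies at chr14:104117469-104117490 on the plus strand in the RefSeq table (GRCh38.p14), and it is shown with seed bases 2 to 8 in capitals.
hsa-miR-203a-3p: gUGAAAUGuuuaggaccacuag
Complementary sites in 3′ UTRs were searched as an 8mer (CATTTCAA), a 7mer-m8 (CATTTCA), a 7mer-A1 (ATTTCAA) or a 6mer (ATTTCA) on the sense strand of the longest GENCODE 29 3′ UTR of each gene. The following sites are shown because they set members with the longest matches that fell (BARD1, RAD51AP1, BRIP1, FANCA) against members with such matches that were not past the threshold (ATM, MRE11, RAD50). Positions are on GRCh38, and capitals mark the match.
BARD1 8mer, chr2:214728644-214728673, minus strand: attataccagatgaaCATTTCAAattgaat
ATM 8mer, chr11:108367790-108367819, plus strand: cagaatattactttgCATTTCAAattacaa
RAD51AP1 7mer-m8, chr12:4559657-4559686, plus strand: gttcctgattgtccaCATTTCAtgataaaa
BRIP1 7mer-m8, chr17:61681845-61681874, minus strand: taaggatttactttaCATTTCAtttggata
FANCA 7mer-m8, chr16:89737581-89737610, minus strand: ttcatcagctgtgtgCATTTCAggatggtt
MRE11 7mer-m8, chr11:94416433-94416462, minus strand: aatgaaaaagatccaCATTTCAtcatttgc
RAD50 7mer-m8, chr5:132644600-132644629, plus strand: agaaaaagctgtcttCATTTCActcttgtt

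The insert was seen in every library as labelled. MIR203A, the hairpin gene, stood at 4.63, 5.44 and 6.96 FPKM with empty vector and at 19005, 3699 and 24945 FPKM with pre-miR-203a. Reads over the listed features ranged from 7632063 in pre-miR-203a library 3 to 35084590 in empty-vector library 2, a range of 4.597 times, and mitochondrial genes took 4.16% to 8.55% of them. All 9 mammary epithelial markers had enough signal to test, with a summed FPKM of 1047 to 1332 under empty vector and 990 to 1395 under pre-miR-203a. The basal keratin KRT14 was low, at 0.834 to 1.84 FPKM with empty vector and 0.724 to 1.51 with pre-miR-203a. Single epithelial markers moved in both directions: E-cadherin CDH1 (55.8 ± 7.09 to 101 ± 14.0 FPKM, SD, n = 3 each) and keratin KRT8 (34.1 ± 4.47 to 66.0 ± 10.9) rose, and the basal keratin KRT5 (617 ± 74.2 to 383 ± 26.5) fell. Their adjusted p were 0.0098, 0.0099 and 0.0189 (limma), and KRT5 lost its call without library 1 or 2 of either group (up to 0.0958). TP63 was lower and KRT17 higher when replicate number was a block (adjusted p = 0.0259 and 0.0173, against 0.0534 and 0.182 in the unblocked fit, limma). The 4 fibroblast markers analysed summed to 3.85 to 6.88 against 5.51 to 9.48, with COL1A1 higher (0.895 to 1.93 FPKM on average; adjusted p = 0.0129, limma, but up to 0.0633 without library 1 of either group). The 3 endothelial markers analysed summed to 0.189 to 0.270 against 0.162 to 0.339, and the 3 leukocyte markers to 0.207 to 0.474 against 0.1001 to 0.288. None of these markers was at 0 reads in all 6 libraries, and their part in the results was not tested. In bulk RNA of this kind, fewer cells that express a gene and less RNA per cell cannot be told apart.

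**Figure D1:**
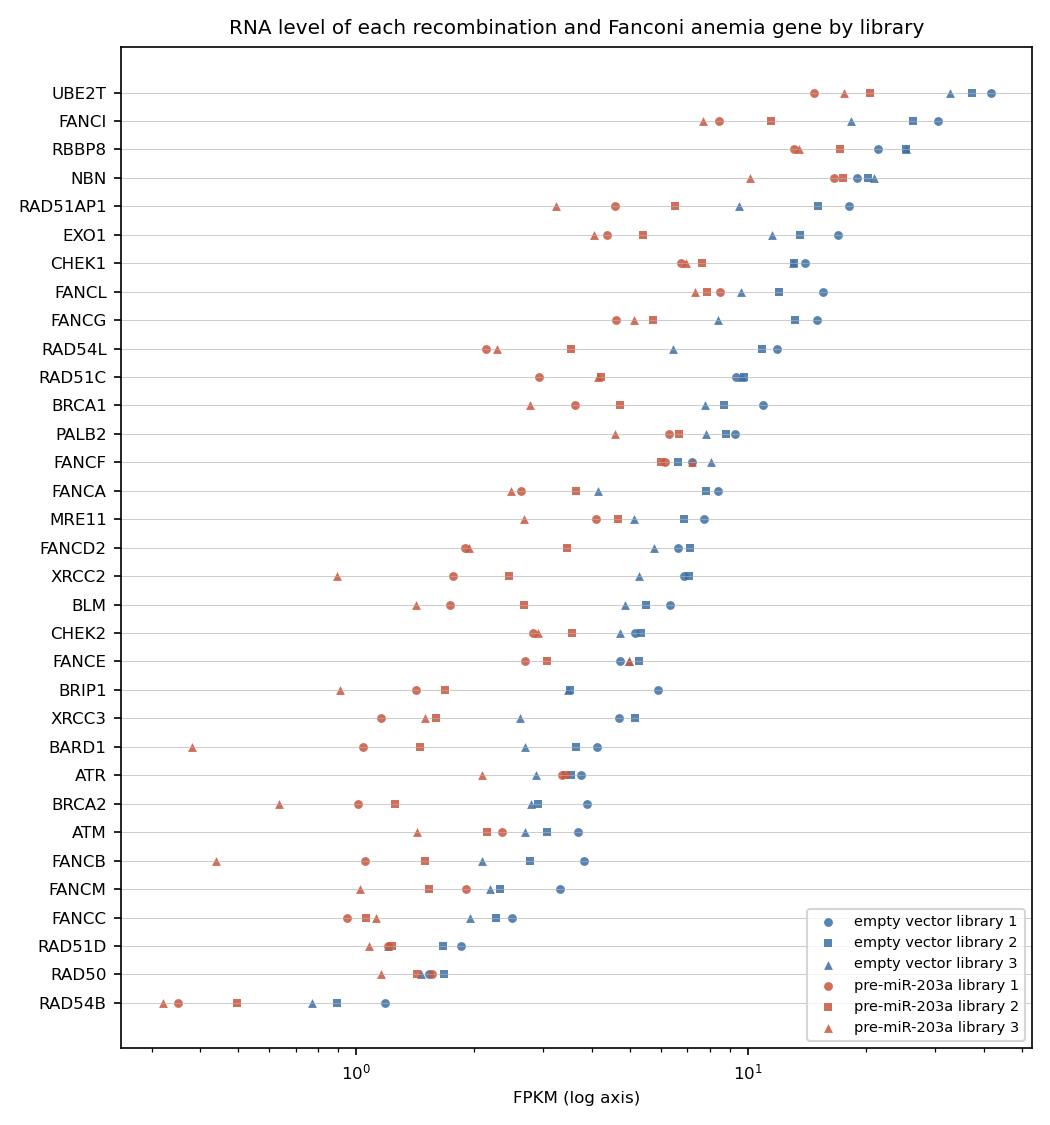
FPKM of the 33 members in each library on a log axis, with empty-vector and pre-miR-203a libraries as separate points. For 28 members all 3 pre-miR-203a libraries lie below all 3 empty-vector libraries, and for FANCE, RAD51D, ATR, FANCF and RAD50 the groups overlap.

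BRCA1 and BARD1 form the ubiquitin ligase that steers breaks towards recombination, and both fell. BRCA1 (ENSG00000012048; chr17:43044295-43170245, minus strand) had FPKM of 11.0, 8.68 and 7.79 in empty-vector libraries 1, 2 and 3, and 3.61, 4.70 and 2.77 in pre-miR-203a libraries 1, 2 and 3. The highest pre-miR-203a library lay below the lowest empty-vector library. The means were 9.14 ± 1.63 and 3.70 ± 0.97 (SD, n = 3 each), or −1.12 ± 0.19 as a log2 fold change (SE; adjusted p = 0.0093, limma). BARD1 (chr2:214725646-214809711, minus strand), the obligate partner, had 4.11, 3.63 and 2.69 against 1.04, 1.46 and 0.381. It was lowest in pre-miR-203a library 3, where 22 reads stood behind the value, and its log2 fold change was −1.22 ± 0.23 (adjusted p = 0.0137, limma). The call of BARD1 ended without empty-vector library 1 (adjusted p = 0.0572, limma).

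BRCA2, which loads the recombination filament onto single strands, fell, while PALB2, the bridge between BRCA1 and BRCA2, was not past the threshold. BRCA2 (chr13:32315474-32400266, plus strand) had FPKM of 3.87, 2.90 and 2.80 against 1.01, 1.252 and 0.634. The groups were separated by more than the range within either, and the log2 fold change was −1.10 ± 0.17 (adjusted p = 0.0074, limma). PALB2 had 9.26, 8.81 and 7.80 against 6.27, 6.66 and 4.58, which is 67.7% of the empty-vector mean. Its groups did not overlap either, and its log2 fold change was −0.50 ± 0.15 with an adjusted p of 0.0628, or 0.0393 with the replicate number as a block (limma).

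Among the genes of DNA end resection the effector nuclease and a cofactor fell, and no subunit of the sensor complex was past the threshold in the unblocked fit. MRE11 of that complex lay close to the cofactor RBBP8 (log2 fold changes −0.66 and −0.69), and no test compared them. EXO1 (chr1:241847967-241895148, plus strand), the exonuclease that extends resection, had FPKM of 17.0, 13.6 and 11.5 against 4.37, 5.41 and 4.05. The empty-vector libraries spread more than the pre-miR-203a libraries, which all lay below them, and the log2 fold change was −1.41 ± 0.16 (adjusted p = 0.0037, limma). RBBP8, or CtIP, the cofactor that starts resection, had 21.5, 25.3 and 25.4 against 13.1, 17.2 and 13.5. It kept 60.6% of the empty-vector mean (log2 fold change −0.69 ± 0.14; adjusted p = 0.0163, limma), and its call was lost when pre-miR-203a library 1, empty-vector library 2 or empty-vector library 3 was left out (adjusted p up to 0.0671).

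MRE11, RAD50 and NBN form the complex that first binds broken ends, and each had its own pattern. MRE11, the nuclease, had FPKM of 7.73, 6.87 and 5.12 against 4.10, 4.65 and 2.68, with no overlap (log2 fold change −0.66 ± 0.20; adjusted p = 0.0687, or 0.0206 with the replicate block, limma). NBN, the signalling subunit, had 18.9, 20.2 and 21.0 against 16.6, 17.5 and 10.1. Pre-miR-203a libraries 1 and 2 of NBN lay just under the empty-vector libraries and library 3 far under them (log2 fold change −0.45 ± 0.20; adjusted p = 0.171, limma). RAD50, the coiled-coil subunit that tethers the ends, had 1.53, 1.68 and 1.46 against 1.56, 1.43 and 1.15. Its groups overlapped (log2 fold change −0.11 ± 0.12; adjusted p = 0.624, limma), and 79.7% of its annotated exonic bases are shared with other genes, so part of its reads may belong to them.

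RAD51C, RAD51D, XRCC2 and XRCC3 are related proteins that help the recombination filament to form and persist, and 3 of the 4 fell. XRCC2 (chr7:152644779-152676165, minus strand) had FPKM of 6.86, 7.07 and 5.26 against 1.76, 2.45 and 0.895. With 26.7% of the empty-vector mean it was the lowest of all 33 members by that measure (log2 fold change −1.49 ± 0.23; adjusted p = 0.0075, limma). RAD51C (chr17:58692573-58735611, plus strand), shared by both paralog complexes, had 9.31, 9.77 and 9.64 against 2.93, 4.21 and 4.15. Its empty-vector libraries were close together (9.57 ± 0.24, SD, n = 3), with a change of −1.16 ± 0.14 on the log2 scale (adjusted p = 0.0038, limma).

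XRCC3, which pairs with RAD51C, and RAD51D, which bridges RAD51C and XRCC2, are less certain. XRCC3 had FPKM of 4.68, 5.14 and 2.63 against 1.16, 1.60 and 1.501, a fall of 1.06 on the log2 scale (SE 0.21; adjusted p = 0.0161, limma). The call was lost when pre-miR-203a library 1, empty-vector library 1 or empty-vector library 2 was left out (adjusted p up to 0.0664). Of the exonic bases of XRCC3 76.7% are shared with KLC1 on the opposite strand, and KLC1 itself stood at 0.12 ± 0.15 on the log2 scale (adjusted p = 0.649, limma). RAD51D had 1.85, 1.67 and 1.20 against 1.21, 1.23 and 1.08. Empty-vector library 3 lay within the pre-miR-203a range, and the log2 fold change was −0.24 ± 0.14 (adjusted p = 0.299, limma).

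The partners that help the filament invade the sister strand were among the members with the most negative log2 fold changes. RAD54L (chr1:46247688-46278473, plus strand), the motor protein of strand exchange, had FPKM of 11.8, 10.8 and 6.45 against 2.15, 3.54 and 2.28. Its means were 9.71 ± 2.87 and 2.66 ± 0.77 (SD, n = 3 each), and its log2 fold change of −1.53 ± 0.24 was the most negative of the tested members (adjusted p = 0.0078, limma). RAD51AP1, which stimulates joint-molecule formation, had 18.1, 15.1 and 9.47 against 4.58, 6.51 and 3.23. Its groups did not overlap (log2 fold change −1.39 ± 0.28; adjusted p = 0.0157, limma), but the call was lost when pre-miR-203a library 1, empty-vector library 1 or empty-vector library 2 was left out (adjusted p up to 0.0576).

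RAD54B, a relative of RAD54L, lay under the filter on low values and was not among the tested members. It had FPKM of 1.18, 0.895 and 0.772 against 0.350, 0.496 and 0.320, with no overlap. Without the filter its log2 fold change was −0.49 ± 0.12 (adjusted p = 0.0566, limma), and the authors' deposited table gave −1.22 with an adjusted p of 0.0026 from DESeq2. Of its exonic bases 59.1% are shared with FSBP on the same strand, which was itself at 0.455 FPKM on average in the empty-vector group.

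BLM and BRIP1 are helicases and FANCM is a DNA translocase, and the first 2 fell. BLM, the Bloom syndrome helicase that dissolves joined chromosomes, had FPKM of 6.33, 5.50 and 4.85 against 1.73, 2.68 and 1.42 (log2 fold change −1.17 ± 0.18; adjusted p = 0.0075, limma). BRIP1, a helicase that binds BRCA1, had 5.88, 3.50 and 3.48 against 1.42, 1.69 and 0.906. Its empty-vector libraries 2 and 3 were alike and library 1 stood higher, and all of them exceeded the pre-miR-203a libraries (log2 fold change −1.16 ± 0.21; adjusted p = 0.0119, limma). FANCM, which anchors the Fanconi core complex at lesions, had 3.32, 2.33 and 2.19 against 1.905, 1.53 and 1.02. Its groups did not overlap, with a log2 fold change of −0.54 ± 0.18 and an adjusted p of 0.0915, or 0.0276 with the replicate block (limma).

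FANCD2, FANCI and UBE2T carry out the central step of the Fanconi pathway, the ubiquitination of FANCD2 and FANCI by UBE2T together with FANCL, and all 3 fell. FANCI (chr15:89243949-89317261, plus strand) had FPKM of 30.5, 26.4 and 18.3 against 8.42, 11.5 and 7.68. Its means were 25.1 ± 6.21 and 9.19 ± 2.01 (SD, n = 3 each; change of −1.34 ± 0.22 on the log2 scale; adjusted p = 0.0083, limma). FANCD2 (chr3:10026414-10101930, plus strand) had 6.62, 7.12 and 5.76 against 1.90, 3.44 and 1.94. It kept 37.3% of the empty-vector mean, beside 36.6% for its partner FANCI (log2 fold change −1.16 ± 0.19; adjusted p = 0.0086, limma). UBE2T, the ubiquitin-conjugating enzyme, had the highest FPKM of all members, with 41.7, 37.3 and 32.8 against 14.8, 20.5 and 17.6. It kept 47.3% of the empty-vector mean (log2 fold change −1.04 ± 0.15; adjusted p = 0.0062, limma).

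Of the 7 measured subunits of the Fanconi core ligase 4 fell and 3 were not past the threshold. FANCG, an adaptor of FANCA, had FPKM of 15.04, 13.2 and 8.41 against 4.595, 5.74 and 5.11 (log2 fold change −1.07 ± 0.20; adjusted p = 0.0137, limma). FANCB, the partner of the catalytic subunit, had 3.82, 2.78 and 2.09 against 1.05, 1.496 and 0.438. The last of these values rested on 12 reads, the fewest of any member in any library (log2 fold change −0.98 ± 0.24; adjusted p = 0.0342, limma). FANCA, the gene most often mutated in Fanconi anemia, had 8.37, 7.80 and 4.13 against 2.63, 3.63 and 2.49, with empty-vector library 3 close to pre-miR-203a library 2. Its log2 fold change was −0.95 ± 0.25 (adjusted p = 0.0395, limma).

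FANCC, which joins FANCE and FANCF in one subcomplex, had FPKM of 2.49, 2.28 and 1.95 against 0.947, 1.06 and 1.13 (log2 fold change −0.66 ± 0.12; adjusted p = 0.0120, limma). Its partners were not past the threshold. FANCE had 4.72, 5.27 and 4.96 against 2.70, 3.07 and 4.98, so that pre-miR-203a library 3 stood with the empty-vector libraries. Its log2 fold change was −0.42 ± 0.19 (adjusted p = 0.186, limma), and −0.62 without pre-miR-203a library 3 (adjusted p = 0.0152). FANCF had 7.19, 6.64 and 8.03 against 6.13, 5.995 and 7.21, with overlapping groups (log2 fold change −0.16 ± 0.12; adjusted p = 0.451, limma). No test of the difference between FANCC and its partners was made.

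FANCL, the catalytic subunit of the core, had FPKM of 15.5, 12.0 and 9.61 against 8.46, 7.88 and 7.33. The groups did not overlap (log2 fold change −0.57 ± 0.17; adjusted p = 0.0636, or 0.0414 with the replicate block, limma). VRK2, with which FANCL shares 19.7% of its exonic bases, was lower too (log2 fold change −0.51 ± 0.12; adjusted p = 0.0258, limma), and reads of the pair could not be assigned by strand. The calls of FANCG and FANCC were lost when pre-miR-203a library 1, empty-vector library 1 or empty-vector library 2 was left out (adjusted p up to 0.0561 and 0.0681, limma). That of FANCB ended without any of those or pre-miR-203a library 3 (up to 0.118). That of FANCA ended without any single library other than empty-vector library 3 (up to 0.134). FANCA shares 23.6% of its exonic bases with ZNF276 on the opposite strand, which stood at 0.21 ± 0.32 on the log2 scale (adjusted p = 0.726, limma).

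The checkpoint kinases relay damage to the cell cycle. Both effector kinases fell here, and neither apical kinase was past the threshold in the unblocked fit. The effector CHEK2 and the apical kinase ATM kept similar shares of the empty-vector mean (61.2% and 63.1%), and no test compared them. CHEK1, the effector of ATR, had FPKM of 14.0, 13.1 and 13.1 against 6.74, 7.62 and 6.94. Both groups were tight, with means of 13.4 ± 0.52 and 7.10 ± 0.46 (SD, n = 3 each; change of −0.83 ± 0.10 on the log2 scale; adjusted p = 0.0041, limma). CHEK2, the effector of ATM, had 5.15, 5.32 and 4.70 against 2.82, 3.56 and 2.92 (log2 fold change −0.57 ± 0.12; adjusted p = 0.01997, limma), and its call was lost when pre-miR-203a library 1, empty-vector library 1 or empty-vector library 2 was left out (up to 0.0933).

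ATM, the kinase activated by broken ends, had FPKM of 3.67, 3.06 and 2.69 against 2.35, 2.16 and 1.43. The groups did not overlap (log2 fold change −0.48 ± 0.16; adjusted p = 0.0927, or 0.0356 with the replicate block, limma). ATR, the kinase of stalled replication forks, had 3.75, 3.53 and 2.87 against 3.36, 3.43 and 2.10. Pre-miR-203a libraries 1 and 2 lay above empty-vector library 3 (log2 fold change −0.16 ± 0.17; adjusted p = 0.601, limma). Without pre-miR-203a library 3 the log2 fold change of ATR was 0.0086.

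**Figure D2:**
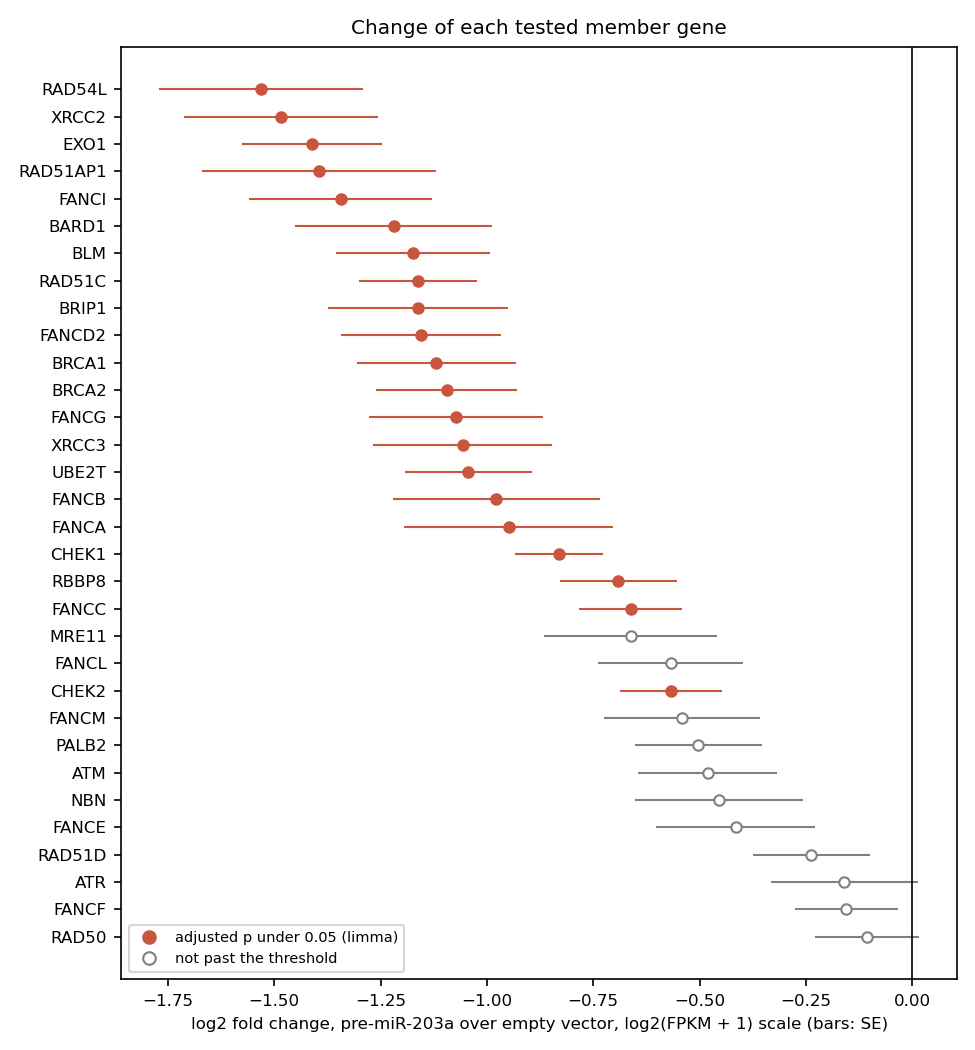
Log2 fold change of each tested member, pre-miR-203a over empty vector, on the log2(FPKM + 1) scale, with bars for the SE and filled points for an adjusted p under 0.05. Values run from −1.53 for RAD54L to −0.11 for RAD50.

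Across the 33 members 28 had no overlap between the groups, with every pre-miR-203a library lower, against 20.9% of all tested features. The 28 include RAD54B, which lay under the filter and is not among the tested features. The 19 members below 50% of the empty-vector mean included genes of every role above except the checkpoint kinases. The share of all tested features below 50% was not counted. The median log2 fold change of the 32 tested members was −0.96, beside −0.01 over all tested features. With the replicate number as a block 26 members were lower, against 9.95% of all tested features, and these were the 21 together with MRE11, FANCL, FANCM, PALB2 and ATM. Leaving out 1 library gave 13 members lower without pre-miR-203a library 1 or empty-vector library 1 or 2. The count was 20 without pre-miR-203a library 2 or 3, and 21 without empty-vector library 3. The number of all tested features called lower also moved between these fits, and its range is given in the last section. In every one of these 6 fits 12 members stayed past the threshold: RAD54L, XRCC2, EXO1, FANCI, BLM, RAD51C, BRIP1, FANCD2, BRCA1, BRCA2, UBE2T and CHEK1.

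The authors' deposited table, from DESeq2 with the sign turned to pre-miR-203a over control, gave 27 of the 33 members an adjusted p under 0.05 and a negative log2 fold change, against 9.45% of features with an adjusted p. It gave 0 members a positive one. The 6 others were NBN, FANCE, RAD51D, ATR, FANCF and RAD50. Log2 fold changes in the authors' deposited table included −1.85 for XRCC2, −1.83 for RAD54L, −1.80 for BARD1 and −1.68 for BRCA2. These are further from 0 than the values on the log2(FPKM + 1) scale, which draws in changes of genes with low FPKM.

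The libraries of 1 group also differed among themselves in a way that ran through most members. Empty-vector library 3 was the lowest of its group for 28 of 33 members, against 51.9% of tested features, and empty-vector library 1 the highest for 23, against 31.5%. Pre-miR-203a library 2 was the highest of its group for 26 members, against 32.4% of tested features, and library 3 the lowest for 21, against 45.6%. The 33 members counted here include RAD54B, which is not among the tested features. The summed FPKM of the members was 327, 299 and 251 with empty vector (libraries 1, 2 and 3) and 138, 167 and 126 with pre-miR-203a. Taken by replicate number, pre-miR-203a had 42.2%, 55.8% and 50.2% of the empty-vector sum, and 31 members were lower in all 3 pairs, the exceptions being FANCE and RAD50. The share of all tested features lower in all 3 pairs was not counted.

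Proliferation markers moved with the members. The 12 markers (among them MKI67, PCNA and CDK1) had a summed FPKM of 1174, 1137 and 926 with empty vector and of 331, 521 and 354 with pre-miR-203a, or 28.2%, 45.8% and 38.2% by replicate number. All 12 fell, against 9.18% of all tested features, with a median log2 fold change of −1.40. When 1 library was left out, 9 to 12 did so. The order of libraries within each group was the same as for the members except that pre-miR-203a library 3 lay above library 1. CDK1 fell from 64.6 ± 13.5 to 19.8 ± 3.56 FPKM, and PCNA, the replication clamp, from 354 ± 40.9 to 132 ± 27.8 (SD, n = 3 each; log2 fold changes −1.647 ± 0.19 and −1.43 ± 0.18; adjusted p = 0.0034 and 0.0043, limma). The part of proliferation in the members' falls was not tested.

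Other genes of homologous recombination and crosslink repair, outside the 33, were lower in part. Of the 49 tested, 20 fell and 0 rose, against 9.18% and 6.59% of all tested features. Their median log2 fold change was −0.47. At an unadjusted p under 0.05 the counts were 26 lower and 0 higher, and by limma-voom 21 and 0. With the replicate block 22 were lower and 1 higher, the nuclease subunit EME2 (3.44 ± 2.32 to 6.34 ± 3.37 FPKM, SD, n = 3 each; adjusted p = 0.0179 with the block and 0.408 without it, limma), which is named after its values were seen. MND1, an accessory factor of strand exchange known from meiosis, had FPKM of 15.9, 14.9 and 15.97 against 4.97, 7.40 and 5.29 (log2 fold change −1.28 ± 0.15; adjusted p = 0.0037, limma). SFR1, a recombination cofactor, and RPA3, a subunit of the single-strand binding complex RPA, fell with log2 fold changes of −0.75 ± 0.11 and −0.88 ± 0.13. Leaving out empty-vector library 1 gave a count of 7, and leaving out pre-miR-203a library 1 or empty-vector library 2 gave 10 each.

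In damage signalling, 9 of 29 tested genes fell and 0 rose, against 9.18% and 6.59% of all tested features. The median log2 fold change was −0.30. At an unadjusted p under 0.05 the list had 12 lower and 0 higher, and by limma-voom 9 and 0. With the replicate block 11 were lower, RIF1 and TOPBP1 being added (adjusted p = 0.0267 and 0.0464, limma). CLSPN, the claspin adaptor through which ATR reaches CHEK1, had FPKM of 8.60, 7.03 and 6.26 against 2.27, 2.76 and 1.24 (log2 fold change −1.45 ± 0.21; adjusted p = 0.0065, limma). RAD1, of the checkpoint clamp, TIMELESS, of the fork protection complex, and RHNO1, a partner of that clamp, fell with log2 fold changes of −0.99 ± 0.14, −1.05 ± 0.16 and −0.63 ± 0.11. Leaving out empty-vector library 1 gave a count of 4, and leaving out empty-vector library 2 gave 5.

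Of 11 tested end joining genes 1 fell and 0 rose, and that count is close to the 9.18% of all tested features called lower. At an unadjusted p under 0.05 the list had 4 lower and 2 higher, and by limma-voom 2 and 0. The gene that fell was XRCC4, the scaffold of the ligase (6.97 ± 0.81 to 3.13 ± 0.43 FPKM as mean ± SD of 3 libraries). Its log2 fold change was −0.95 ± 0.13 (adjusted p = 0.0056, limma). With the replicate block PRKDC, the kinase of end joining, was lower as well (adjusted p = 0.0303, against 0.150 without it, limma). Of 15 tested nucleotide excision genes 0 fell and 0 rose in limma (unadjusted p under 0.05 for 2 and 2; 1 and 1 by limma-voom). Its genes with the smallest p were DDB1 and DDB2, the subunits of the damage sensor, with log2 fold changes of 0.34 ± 0.10 and −0.68 ± 0.19 (adjusted p = 0.0534 each, and 0.0408 for DDB2 with the replicate block, limma). Medians of these lists were −0.27 and −0.11.

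Of 7 tested mismatch repair genes 3 fell and 0 rose, against 9.18% and 6.59% of all tested features. At an unadjusted p under 0.05 the list had 5 lower and 0 higher, and by limma-voom 3 and 0. Without empty-vector library 1 the count was 2. MSH6, a subunit of a mismatch sensor, had FPKM of 15.2, 16.2 and 13.4 against 7.46, 8.51 and 6.63. Its groups did not overlap (log2 fold change −0.90 ± 0.13; adjusted p = 0.0061, limma). Of 18 tested base excision genes 6 fell and 0 rose, against the same shares, and 3 fell without empty-vector library 1. At an unadjusted p under 0.05 and by limma-voom the counts were also 6 and 0. The glycosylase NEIL3 had FPKM of 9.58, 8.52 and 6.68 against 1.52, 2.98 and 1.53 (log2 fold change −1.64 ± 0.21; adjusted p = 0.0045, limma). The flap endonuclease FEN1, the break sensor PARP1 and the uracil glycosylase UNG fell with log2 fold changes of −1.23 ± 0.17, −0.82 ± 0.12 and −1.02 ± 0.19, and UNG lost its call without empty-vector library 1 (adjusted p = 0.0532, limma). The medians were −0.47 for mismatch and −0.16 for base excision genes. No test compared these lists with the 33 members.

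**Figure D3:**
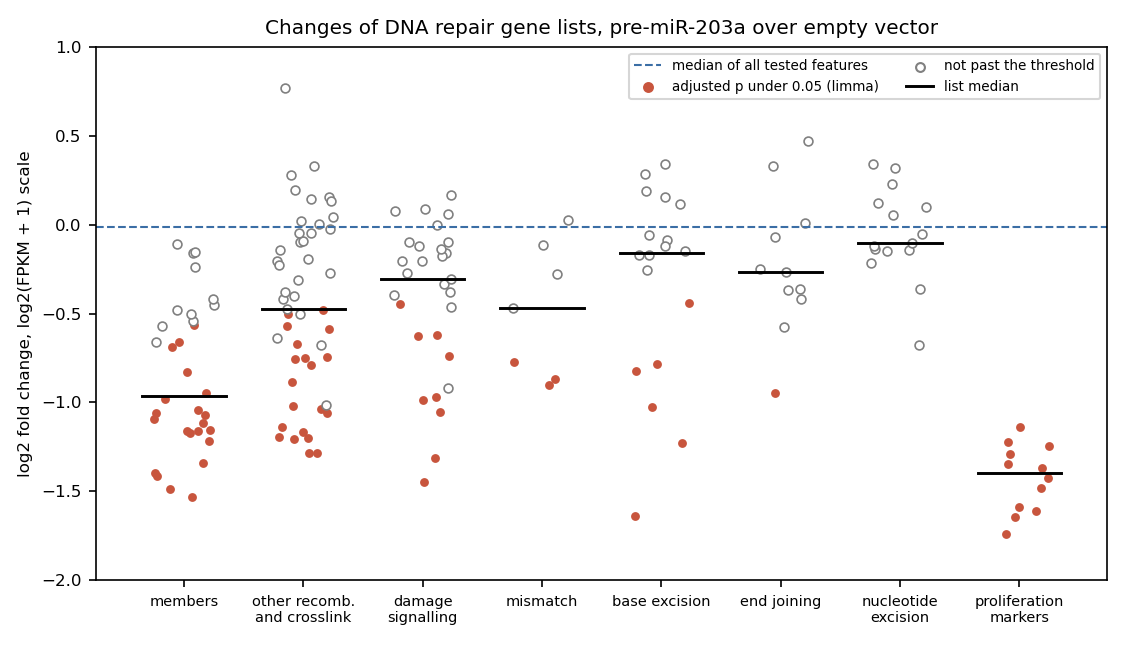
Log2 fold change of each tested gene of the members, of 6 other repair lists and of the proliferation markers, with filled points for an adjusted p under 0.05 and a bar at each list's median. The medians run from −1.40 for the proliferation markers and −0.96 for the members to −0.11 for nucleotide excision, and the dashed line marks the median of all tested features, −0.01.

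A match of 7 bases or longer to the miR-203a-3p seed was held by 11 of 33 members (33.3%), against 34.2% of 10188 tested features with a 3′ UTR. The 33 include RAD54B, which is not among the tested features. An 8mer was held by BARD1 and ATM (6.06% against 7.62%), and a 7mer-m8 as the longest match by RAD51AP1, BRIP1, FANCA, MRE11 and RAD50 (15.2% against 16.2%). BRCA2, FANCB, CHEK1 and NBN held a 7mer-A1 (12.1% against 10.3%). A 6mer alone was held by 11 members (33.3% against 17.6%), and the other 11 had no match (33.3% against 48.2%). The median length of the 3′ UTRs searched was 1796 nt in the members and 1657 nt in the tested features.

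Members that fell and members that were not past the threshold occurred in every class of match. BARD1, whose 8mer is shown above and which has a 7mer-m8 as well, fell to 27.6% of the empty-vector mean, while ATM, with an 8mer and 2 7mer-A1 matches, was not past the threshold at 63.1%. RAD51AP1, BRIP1 and FANCA fell with a 7mer-m8, and MRE11 and RAD50 were not past the threshold with one. EXO1, FANCI, XRCC3, RBBP8 and CHEK2 fell with no match in the 3′ UTR searched. A longest annotated 3′ UTR may belong to a transcript that these cells seldom use, and no site was tested. Transcripts were not filtered by type, so after an early stop codon, bases that code in other transcripts may have been searched as 3′ UTR. This bears on every class of match, in members and tested features alike. The long sequences searched for BRCA1 (5375 nt), ATR (3818 nt) and BLM (3227 nt), each with a 6mer, were not checked for it.

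**Figure D4:**
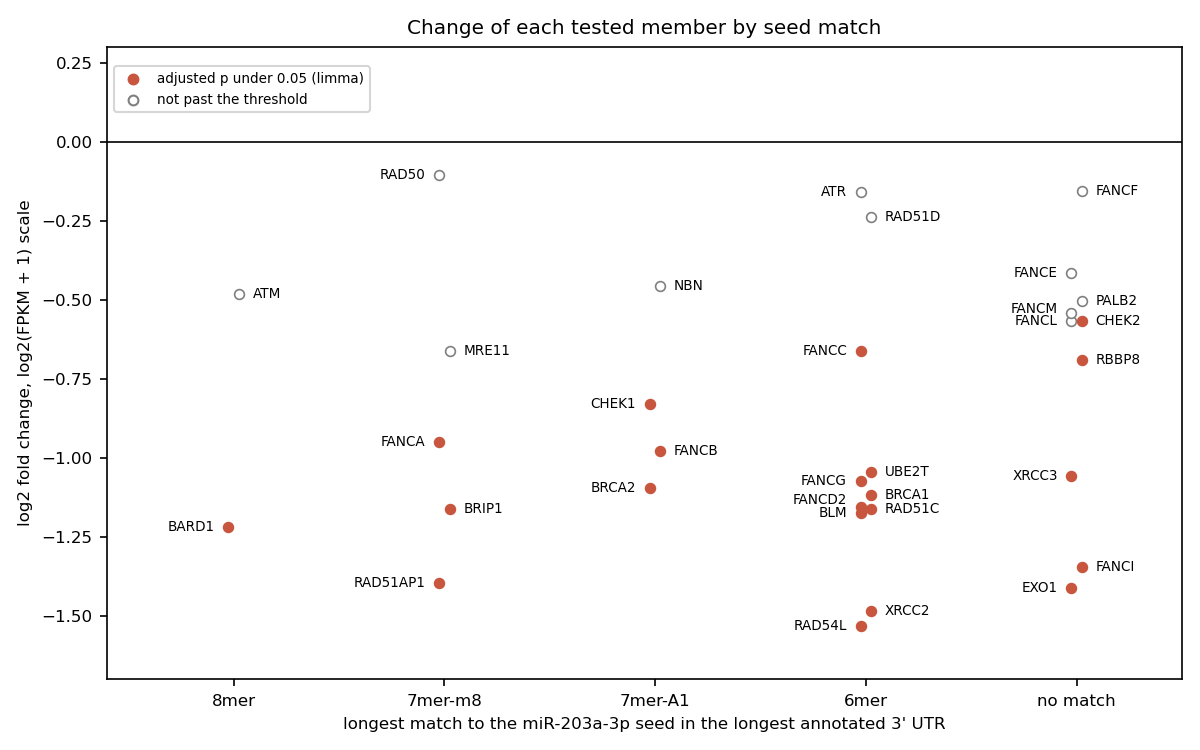
Log2 fold change of each tested member, on the log2(FPKM + 1) scale, by the longest match to the miR-203a-3p seed in its longest annotated 3′ UTR. Filled points passed an adjusted p of 0.05, and members that fell and members that were not past the threshold occur in all 5 classes.

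Promoters were searched because the members moved together. The RefSeq table (GRCh38.p14) held 1 window, from 250 bases before to 50 after the start, for 30 members, and not for FANCI, NBN and RAD54B. E2F-type letters (TTTGGCGC, TTTCCCGC, TTTGGCGG or TTTCCCGG, on either strand) were present in 6 of 30 members (20.0%), in 7.72% of 8501 tested features with a window and in 4.31% of all 35116 windows. The holders were XRCC2, FANCD2, UBE2T and FANCC, which fell, and ATR and RAD50, which were not past the threshold, so the share was 20.0% both in members that fell and in those that were not past the threshold. The CHR letters (TTTGAA or TTCGAA) were present in 4 of 30 members (13.3%) against 10.9% of tested features and 16.4% of all windows, and CCAAT, on either strand, in 14 (46.7%) against 37.5% and 34.6%. Of the 6 holders, 4 windows are printed, with the E2F-type letters in capitals, to set a pair that fell beside the pair that was not past the threshold.
XRCC2 promoter, chr7:152676092-152676391, minus strand: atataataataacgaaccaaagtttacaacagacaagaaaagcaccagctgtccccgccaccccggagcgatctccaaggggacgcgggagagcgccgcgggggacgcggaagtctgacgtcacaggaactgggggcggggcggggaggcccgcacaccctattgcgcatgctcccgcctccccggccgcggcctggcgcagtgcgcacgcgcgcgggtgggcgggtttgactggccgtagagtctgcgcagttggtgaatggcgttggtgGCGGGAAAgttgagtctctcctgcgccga
FANCD2 promoter, chr3:10026187-10026486, plus strand: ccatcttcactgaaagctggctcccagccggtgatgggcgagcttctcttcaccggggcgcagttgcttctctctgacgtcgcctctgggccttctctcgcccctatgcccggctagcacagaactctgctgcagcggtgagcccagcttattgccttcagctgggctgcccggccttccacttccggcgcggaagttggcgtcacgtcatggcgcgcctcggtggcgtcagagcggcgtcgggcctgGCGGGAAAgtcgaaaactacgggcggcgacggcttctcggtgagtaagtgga
ATR promoter, chr3:142578684-142578983, minus strand: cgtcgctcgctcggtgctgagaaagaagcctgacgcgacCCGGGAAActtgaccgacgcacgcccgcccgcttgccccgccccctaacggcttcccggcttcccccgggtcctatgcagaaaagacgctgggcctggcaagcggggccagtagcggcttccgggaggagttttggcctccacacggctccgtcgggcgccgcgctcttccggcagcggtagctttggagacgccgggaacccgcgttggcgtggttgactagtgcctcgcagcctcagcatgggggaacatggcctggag
RAD50 promoter, chr5:132556727-132557026, plus strand: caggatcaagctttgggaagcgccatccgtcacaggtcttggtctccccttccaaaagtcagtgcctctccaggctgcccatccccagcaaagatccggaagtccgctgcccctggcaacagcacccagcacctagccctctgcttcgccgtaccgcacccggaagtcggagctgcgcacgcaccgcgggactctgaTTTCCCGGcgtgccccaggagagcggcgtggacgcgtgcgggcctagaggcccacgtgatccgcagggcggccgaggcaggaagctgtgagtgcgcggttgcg
The capitals begin 22 bases after the start in XRCC2, 2 before it in FANCD2, 211 before it in ATR and 53 before it in RAD50. These are letter matches only, and binding was not measured here.

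How reads were counted bears on 8 members that share over 10% of their annotated exonic bases with another gene in GENCODE 29. They are RAD50, XRCC3, RAD54B, RAD54L, FANCA, FANCL, ATR and FANCF, and the sources used here do not give the strand setting of featureCounts. RAD54L shares 25.1% of its exonic bases with LRRC41 on the opposite strand, which stood at 0.27 ± 0.16 on the log2 scale (adjusted p = 0.299, limma). For 14 members, among them BRCA2, EXO1, XRCC2, RAD51C, BLM, BARD1, BRIP1 and UBE2T, no exonic base is shared. Depth was least in pre-miR-203a library 3, where the members together had 5316 reads, against 60028 in empty-vector library 2.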

How the data were processed

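Values of 3 empty-vector and 3 pre-miR-203a RNA-seq libraries were analysed, grouped by sample title. The authors worked on hg38 and used featureCounts 2.0.0, DESeq2 1.28.1, FastQC 0.11.5 and MultiQC 1.6, per the submitters' processing notes. Aligner, annotation and strandedness are not given in the sources used here. FPKM for 18999 features were deposited by the authors. A second table deposited by the authors held TPM, a baseMean signal, log2 fold changes (control over pre-miR-203a) with their SE as a score, and p-values. Reads were recovered from FPKM and baseMean, with 100% of values whole within 0.01, and they give the depth of each library.

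No count column was used here, so limma 3.58.1 (R 4.3.3) fitted log2(FPKM + 1) on group, with trended and robust eBayes, over the 11271 features that reached an FPKM of 1 in at least 3 libraries. Adjustment followed Benjamini and Hochberg, and an adjusted p under 0.05 was called. For 3 against 3 libraries an exact permutation test cannot go below 0.1, so none is given. Deviations from group means correlated at 0.433, 0.269 and 0.321 for libraries with the same number, and at −0.417 to 0.221 for those with different numbers. Deviations from a mean of 3 libraries offset one another, so these values cannot settle whether the libraries are paired. The labels state no pairing, so the main fit used group alone, and the replicate number was a block in another setting. The fit with that block stands beside a result where it changes a call. Other settings were another pseudocount, other filters, median centring, limma-voom on recovered reads, a plain variance prior and leaving out each library. All members are named, with up to 4 genes per other list by smallest p, of which some are not reported here. Members and lists were chosen with earlier results of these data known. The 3′ UTRs came from GENCODE 29, promoters and the microRNA from RefSeq, joined by symbol or Ensembl identifier. Python 3.11.15, pandas 2.3.3, numpy 2.4.6, scipy 1.17.1 and matplotlib 3.10.9 were used.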

Additional observations from a re-analysis of the deposited data

How the results depend on the processing

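No member was called higher under any of the 13 other settings run, and every tested member kept a negative log2 fold change except ATR, which ranged from −0.25 to 0.0086 when 1 library was left out, the latter without pre-miR-203a library 3. Leaving out 1 library moved the members called lower from 13 to 21. All features called moved from 745 to 2257 of the 11271 tested, with 422 to 1338 lower and 323 to 919 higher. The counts of 13 came on leaving out pre-miR-203a library 1, empty-vector library 1 or empty-vector library 2. Without the low-value filter 19 members were lower, since FANCA and FANCB passed the threshold no more (adjusted p = 0.0717 and 0.0629, limma). With FPKM of 3 required, 16 of the 23 members then tested were lower. The counts were 23 with median centring, 22 with limma-voom, and 21 with a pseudocount of 0.1 or the plain variance prior. Among all features tested, 873 of 18999 were lower without the low-value filter, and 946 of 8779 with FPKM of 3 required. Of the 11271 features in the other 4 fits, 977 were lower after median centring and 1066 by limma-voom. That number was 1014 for the pseudocount of 0.1 and 1037 for the plain variance prior. With the replicate number as a block, 1970 features and 26 members were called, the latter all lower, and no call of a member was lost. In any annotated 3′ UTR 13 members held a match of 7 bases or longer, against 11 in the longest. Limits are the 3 libraries per group and pre-miR-203a library 3, where FANCB rested on 12 reads. Bulk RNA cannot tell a change in expression from a change in cell composition. Whether an AGO2 immunoprecipitation came before mRNA purification could not be settled. Among members of low FPKM, such as FANCB, RAD51D and RAD50, the log2(FPKM + 1) scale understates changes.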
